A study of Mus musculus with 48 samples.

Results

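The Reg genes encode small secreted C-type lectins, proteins built around a carbohydrate-binding fold. The mouse members Reg1, Reg2, Reg3a, Reg3b, Reg3d, Reg3g and Reg4 were taken by gene symbol, 7 of the 54532 gene identifiers in a catalogue of small intestinal RNA over the first 4 weeks of life. Each sample was a whole-thickness piece of 2 cm of duodenum, next to the stomach, or of ileum, next to the caecum, from C57Bl/6J mice of both sexes with no treatment or engineered allele. The ages were day 0, 2, 4, 6 and 8 and week 2, 3 and 4, with 3 numbered samples per region and age and 48 in all. Pups were nursed by the dam up to day 21, when they were moved to chow. Litters usually supplied 2 or 3 ages, and the labels do not say which. The labels call the housing standard germ-free and also speak of microbial exposures, so whether the mice carried microbes cannot be told from them.

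Values are the authors' estimated counts per gene, scaled here for library size (CPM, the usual per-library scale for counts). Total counts ran from 23173093 to 65042327 per duodenum sample and from 16824021 to 42029626 per ileum sample. The samples labelled day 6 number 3 were left out of both regions, because their regional markers stood at the level of the other region. Pdx1, which encodes a regulator of duodenal and pancreatic fate, was at 0.115 CPM in the sample labelled duodenum and 14.5 CPM in that labelled ileum. This leaves 46 samples, with 2 per region at day 6. The remaining labels were checked against regional markers. At week 4 Fabp6, the ileal bile acid binding protein gene, ranged between 41.7 and 1936 CPM in ileum samples and between 0.104 and 0.672 CPM in duodenum samples. The summed CPM of Pdx1, Fabp6, Fgf15 and Slc10a2 ran from 112 to 2306 in week 4 ileum samples. Its lowest value thus lay below the 1188 to 1483 of week 3 ileum samples, and above the 3.42 to 21.8 of week 4 duodenum samples. At day 0 Pdx1 overlapped between regions, with 2.41 to 25.0 CPM in duodenum samples and 0.111 to 6.51 CPM in ileum samples. Reg1 overlapped there too, with 1.80 to 63.0 CPM in duodenum samples and 0 to 45.8 CPM in ileum samples. Summed CPM of 5 stomach markers ran from 0.166 to 19.0 in ileum day 0 samples. Among later ileum samples the highest sum was 0.621, at week 2. Whether the day 0 labels are right was not tested. Duodenum day 0 numbers 2 and 3 each held at least 10 CPM of both Xist, a transcript of female cells, and Ddx3y, a Y-linked gene. Results of single genes that rest on them are given with and without them where the call or the size changes. Counts of Reg genes called are given with them.

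Reg3b and Reg3g are bactericidal or bacteria-binding lectins that epithelial and Paneth cells release into the gut lumen. Their transcription is known to depend on microbial contact, through MyD88 in epithelial and other cells and through interleukin-22, whose receptor on the epithelium activates STAT3. Reg1, once called pancreatic stone protein, and its close relative Reg2 are abundant in pancreatic acinar cells, the cells that make digestive enzymes, and Reg1 is also made in the small intestine. Reg3a and Reg3d are less studied relatives of Reg3b and Reg3g. Reg4 lies outside the cluster that holds the other genes and is known from enteroendocrine and goblet cells.

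The 6 genes other than Reg4 lay within chr6:78370657-78468872 of GRCm38. Reg3b, at chr6:78370657-78373466 on the plus strand, and Reg3g, at chr6:78466269-78468872 on the minus strand, marked its ends. Reg4 lay at chr3:98222156-98236748. The longest coding transcripts had 6 exons, apart from that of Reg1 with 7. Reg3b and Reg3g transcripts were 74.42% identical over 739 aligned bases. Of the 753 stretches of 31 bases in the Reg3b transcript, 5 also occurred in Reg3g, so most of each transcript could be told from the other at this length. For Reg1, 51 of 874 such stretches occurred in transcripts of other genes, none of them a Reg gene.

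The promoter sequences of Reg3b, Reg3g, Reg3a and Reg1 are shown because most of the results below concern these genes. Each is the 150 bases before the RefSeq transcription start in GRCm38.p6, read 5′ to 3′ on the gene's strand. Capitals mark TATAAA, the TATA box letters, and TTCNNNGAA, the letters bound by STAT factors.
Reg3b, chr6:78370735-78370884, plus strand: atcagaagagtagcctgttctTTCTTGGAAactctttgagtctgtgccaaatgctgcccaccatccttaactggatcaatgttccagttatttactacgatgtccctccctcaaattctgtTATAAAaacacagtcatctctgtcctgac
Reg3g, chr6:78468875-78469024, minus strand: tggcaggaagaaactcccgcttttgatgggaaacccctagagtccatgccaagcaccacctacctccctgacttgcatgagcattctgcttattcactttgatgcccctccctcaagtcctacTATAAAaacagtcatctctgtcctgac
Reg3a, chr6:78380559-78380708, plus strand: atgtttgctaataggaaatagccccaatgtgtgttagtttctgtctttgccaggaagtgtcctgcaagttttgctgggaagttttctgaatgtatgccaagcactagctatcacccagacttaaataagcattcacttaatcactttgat
Reg1, chr6:78425833-78425982, plus strand: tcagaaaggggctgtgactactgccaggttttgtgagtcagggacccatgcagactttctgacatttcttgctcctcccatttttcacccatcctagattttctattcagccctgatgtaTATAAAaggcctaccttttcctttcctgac
The promoters of Reg3b and Reg3g were 70.04% identical over 247 aligned bases, and their longest shared run was 20 bases. Both strands of the 250 bases before each start were searched, and the motifs do not overlap each other. TATAAA was present in Reg1 and Reg2 at position -30, and in Reg3b at -29, counted from the start site. Reg3g had 2 matches, the nearer at -27. It was found in 12.37% of 32851 RefSeq promoters of the same length. TTCNNNGAA was present in Reg3b at -129 and in Reg3d at -238, and in 7.02% of all promoters. Reg3a and Reg4 held neither set of letters in this window. A match to the letters describes the sequence and does not show a bound site.

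The RNA of 6 of the 7 Reg genes changed with age in both regions. All 7 genes passed the filter on low counts, which left 21986 genes to test. In a joint test of the 8 ages (edgeR quasi-likelihood F test, adjusted p under 0.05 counted as called), 6 of 7 Reg genes were called in the duodenum, where 67.4% of all genes were. In the ileum 6 of 7 were called, against 58.7% of all genes. The gene not called was Reg2 in both regions. From day 0 to week 4, 6 of 7 Reg genes rose in the duodenum, where 40.5% of all genes were called, 20.4% higher and 20.1% lower. In the ileum 4 of 7 rose (Reg3a, Reg3b, Reg3d and Reg3g), against 41.9% of genes called, 21.5% higher and 20.4% lower. The median log2 fold change of the 7 genes over this span was 4.75 in the duodenum and 5.48 in the ileum. Over all genes tested it was -0.02 and 0.08. These counts and medians include duodenum day 0 numbers 2 and 3. The duodenal median is the value of Reg1, which was 8.82 with only number 1 of that group kept. For Reg3d the duodenal change was 4.38 with them and 3.815 without them.

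**Figure D1:**
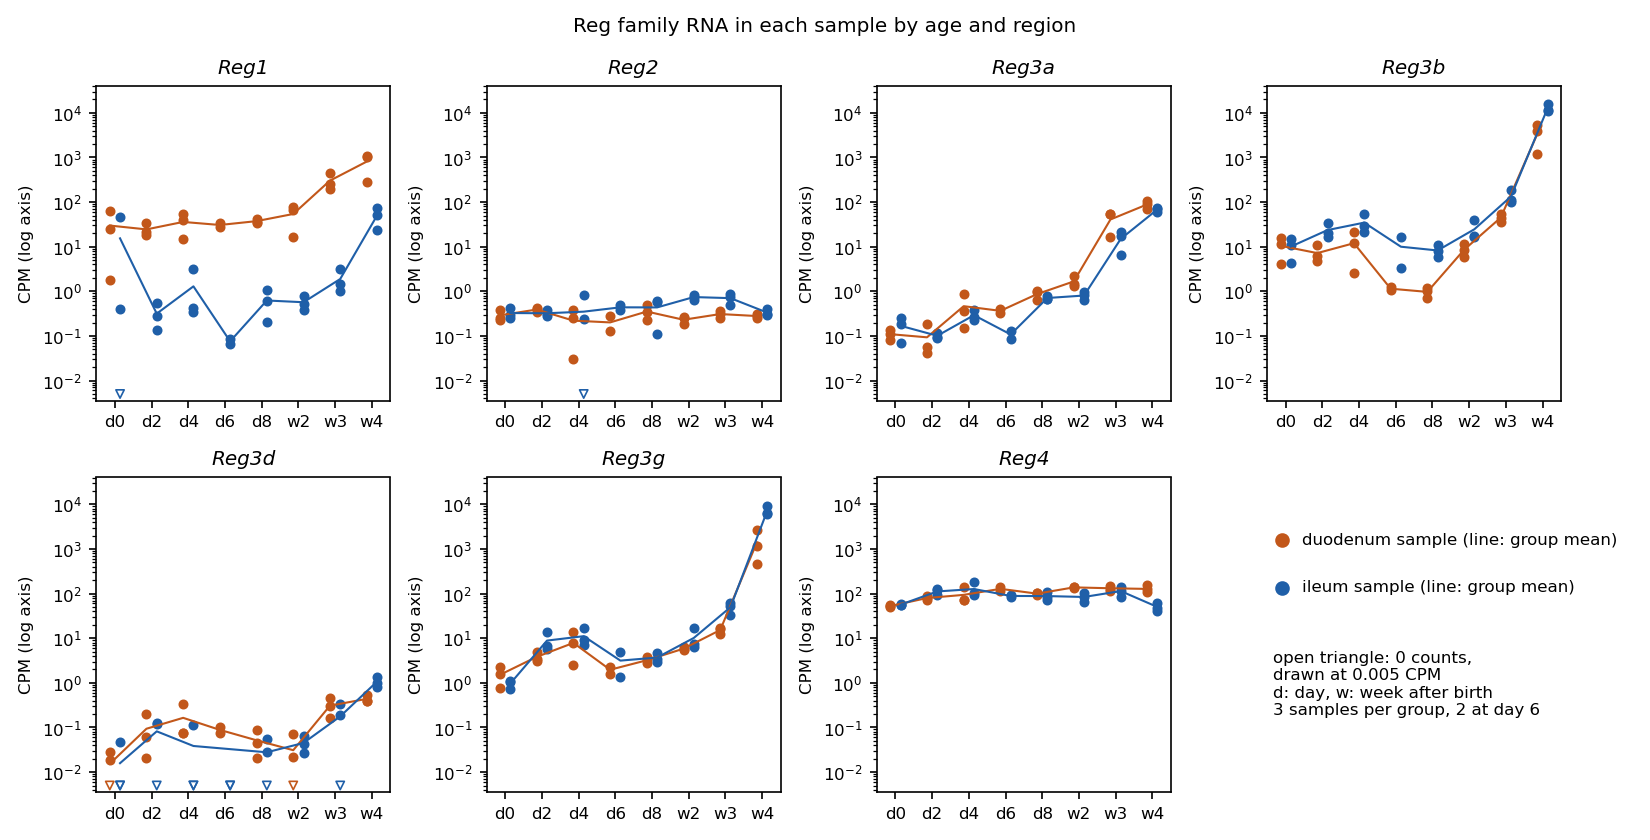
RNA level of each Reg gene, in CPM on a log axis, in each of 46 samples by age (d, day; w, week) for duodenum and ileum; lines join group means and open triangles are samples at 0 counts. Reg3b and Reg3g climb steeply between week 3 and week 4, Reg3a climbs from week 2, Reg1 is higher in the duodenum from day 2 on, and Reg2 and Reg4 keep to narrow ranges.

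The consecutive intervals tested were day 0 to week 2, week 2 to week 3 and week 3 to week 4. Among them the largest changes were those of Reg3b and Reg3g between week 3 and week 4. In the ileum Reg3b stood at 101, 186 and 114 CPM in the 3 samples of week 3, against 11540, 16190 and 10970 CPM in those of week 4. The duodenal samples held 35.7, 55.5 and 43.5 CPM at the earlier age, against 1176, 5268 and 3830 CPM at the later. Every week 4 sample lay above every week 3 sample in both regions, and duodenum number 1 was the lowest of week 4. The log2 fold change of Reg3b was 6.59 ± 0.74 (SE) in the ileum (adjusted p = 5.59e-08, edgeR) and 6.25 ± 0.73 in the duodenum (adjusted p = 1.35e-07, edgeR). Reg3g, the Gram-positive-killing lectin gene, moved in the same way. Its ileal values were 33.3, 62.3 and 53.2 CPM before the step, then 6316, 9039 and 5979 CPM. Its duodenal values were 12.5, 16.2 and 17.1 CPM before it, then 457, 2615 and 1155 CPM. The 2 ages did not overlap for Reg3g either, and duodenum number 1 was again the lowest of week 4. Its log2 fold change was 7.16 ± 0.64 in the ileum (adjusted p = 3.80e-10, edgeR) and 6.53 ± 0.62 in the duodenum (adjusted p = 1.40e-09, edgeR).

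Over this step 3 of 7 Reg genes were called in the duodenum, Reg3a, Reg3b and Reg3g, all higher, where 12.7% of all genes were called, 7.75% higher and 4.96% lower. In the ileum 6 of 7 were called, with Reg1, Reg3a, Reg3b, Reg3d and Reg3g higher and Reg4 lower, against 16.1% of genes called, 8.26% higher and 7.81% lower. The members' median log2 fold change was 1.12 in the duodenum and 2.61 in the ileum, and that of all genes was -0.04 and 0. The changes in the 2 regions were also set against each other. For Reg3b the ileal change exceeded the duodenal one by 0.34 ± 0.82 on the log2 scale (adjusted p = 0.912, edgeR), and for Reg3g by 0.63 ± 0.69 (adjusted p = 0.748, edgeR). Neither difference passed the test, and without duodenum week 4 number 1 that of Reg3b was -0.09. No Reg gene was called in this comparison with edgeR, in which 1.18% of genes were, 0.396% higher and 0.782% lower. At an unadjusted p under 0.05 there were 3, Reg1, Reg3a and Reg4, and DESeq2 called 1, Reg4.

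Before week 3 both genes were low. Over the 17 ileum samples of day 0 to week 2 Reg3b ran from 3.30 to 53.9 CPM with a median of 16.7, and Reg3g from 0.736 to 17.1 CPM with a median of 5.82. Over the 17 duodenum samples Reg3b ran from 0.696 to 21.5 CPM with a median of 5.81, and Reg3g from 0.776 to 13.5 CPM with a median of 3.19. The mean of week 3 was 1.31% of the mean of week 4 for Reg3b in the duodenum and 1.04% in the ileum. For Reg3g these shares were 1.08% and 0.697%. Between week 2 and week 3 the gains of both genes lay between 1.39 and 2.44 on the log2 scale. Reg3b gained 2.40 ± 0.62 in the duodenum (adjusted p = 0.00509, edgeR) and 2.44 ± 0.61 in the ileum (adjusted p = 0.00259, edgeR), on the log2 scale. Reg3g gained 2.28 ± 0.52 in the ileum (adjusted p = 8.33e-04, edgeR). In the duodenum its 1.39 ± 0.51 did not pass (adjusted p = 0.0572, edgeR), although the samples of the 2 ages did not overlap and DESeq2 called it (adjusted p = 0.0283). Between week 2 and week 3, 3 Reg genes rose in the duodenum (Reg3a, Reg3b and Reg3d) and 3 in the ileum (Reg3a, Reg3b and Reg3g). Of all genes tested 18.3% were called at this step in the duodenum, 7.7% higher and 10.6% lower. In the ileum 26.8% were called, 12.9% higher and 13.9% lower.

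Whether the changes of the 2 genes over the first 2 weeks differ from each other was not tested. Reg3g rose from day 0 to week 2, by 1.91 ± 0.56 in the duodenum (adjusted p = 0.0116, edgeR) and 3.42 ± 0.60 in the ileum (adjusted p = 1.07e-04, edgeR). The duodenal call was lost without duodenum day 0 number 1 (adjusted p = 0.0727, edgeR). Without numbers 2 and 3 of that group the change was 2.89 (adjusted p = 0.0462, edgeR). Reg3b changed by -0.31 ± 0.60 in the duodenum and 1.3 ± 0.60 in the ileum, and neither passed (adjusted p = 0.765 and 0.176, edgeR). Without duodenum day 0 numbers 2 and 3 the duodenal change of Reg3b was 1.04 (adjusted p = 0.535, edgeR), and without number 3 alone 0.18. The ileal samples of Reg3b at week 2 lay above those of day 0 without overlap. Group means between these ages did not follow an even course. Those of Reg3g in the ileum were 8.85, 11.1, 3.15 and 3.69 CPM at day 2, 4, 6 and 8. Those of Reg3b in the duodenum were 11.99, 1.15 and 0.972 CPM at day 4, 6 and 8. The single steps among these days were not tested. In all, 3 of 7 Reg genes rose in the duodenum from day 0 to week 2 (Reg3a, Reg3g and Reg4), where 23.5% of genes were called, 12.1% higher and 11.3% lower. In the ileum 2 rose (Reg3a and Reg3g) and Reg1 fell, where 12.3% were called, 6.43% rose and 5.92% fell.

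**Figure D2:**
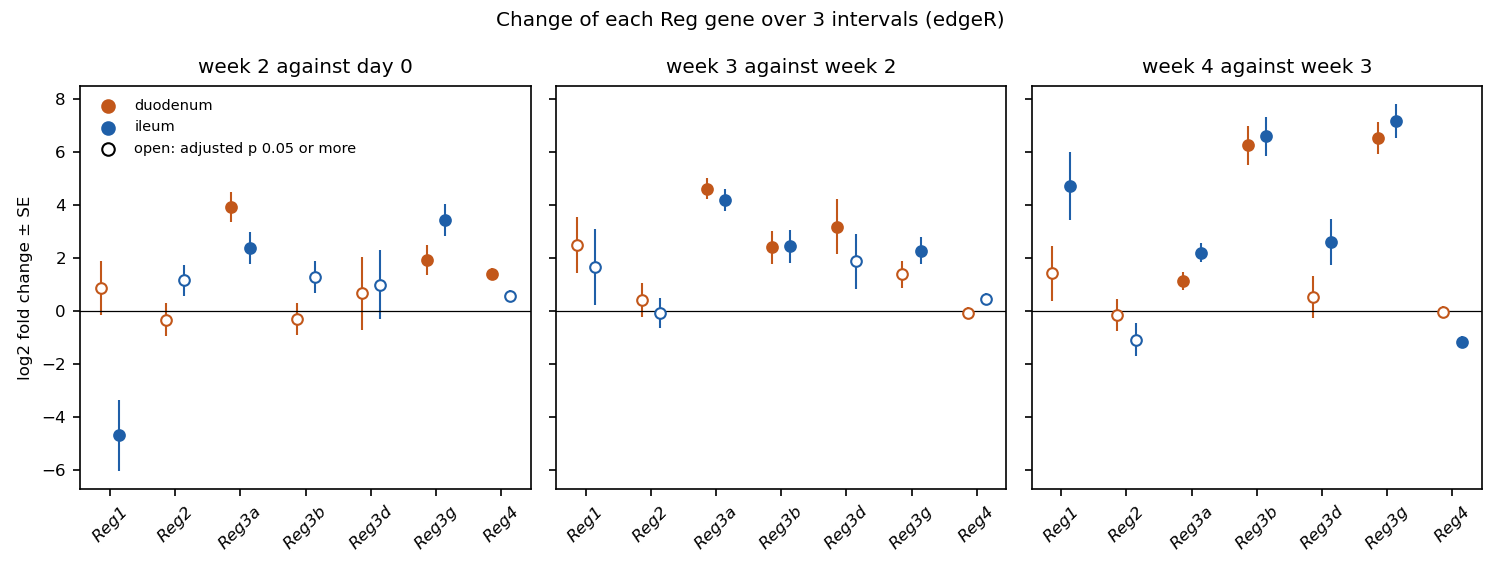
Log2 fold change with its standard error for each Reg gene over 3 intervals in duodenum and ileum; filled points had an adjusted p under 0.05 (edgeR). Reg3b and Reg3g reach 6.25 to 7.16 at the last step, Reg3a has its largest change, 4.62 and 4.20, between week 2 and week 3, and Reg2 has no filled point.

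Reg3a rose a step earlier. Week 2 duodenum samples held 1.35, 2.21 and 1.45 CPM of it, those of week 3 held 16.5, 53.3 and 52.7 CPM, and those of week 4 held 69.9, 89.3 and 107 CPM. The ileal values were 0.625, 0.975 and 0.817 CPM in week 2, then 6.44, 21.3 and 17.3 CPM, then 70.7, 74.6 and 60.7 CPM. The 3 ages did not overlap within a region, and number 1 was the lowest sample of week 3 in both. From week 2 to week 3 the log2 fold change was 4.62 ± 0.41 in the duodenum (adjusted p = 3.20e-11, edgeR) and 4.20 ± 0.41 in the ileum (adjusted p = 2.91e-10, edgeR). From week 3 to week 4 it was 2.20 ± 0.35 in the ileum (adjusted p = 1.54e-05, edgeR) and 1.12 ± 0.34 in the duodenum (adjusted p = 0.0230, edgeR). The duodenal call at this last step was lost without week 3 number 1 (0.74, adjusted p = 0.169, edgeR), week 4 number 2 (adjusted p = 0.0596, edgeR) or week 4 number 3 (adjusted p = 0.1003, edgeR). It was also lost with only the compared groups in the fit (adjusted p = 0.167, edgeR) and in 3 further settings (adjusted p = 0.0552 to 0.0630, edgeR). Already at week 3 the mean of Reg3a was 46.03% of its week 4 mean in the duodenum and 21.8% in the ileum, against 1.31% or less for Reg3b and Reg3g.

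A rise of Reg3a was already called in the first 2 weeks. From day 0 to week 2 its log2 fold change was 3.91 ± 0.57 in the duodenum (adjusted p = 2.40e-06, edgeR) and 2.37 ± 0.59 in the ileum (adjusted p = 0.00505, edgeR). These rest on few reads, since its counts at day 0 were 3 to 6 per sample in both regions. The ileal call was lost without ileum day 0 number 3 (1.89, adjusted p = 0.0707, edgeR). At week 3 the ileum lay below the duodenum by 1.45 ± 0.35 on the log2 scale (adjusted p = 0.00434, edgeR), although duodenum number 1 lay within the ileal range. That call was lost with only the 2 groups in the fit (adjusted p = 0.207, edgeR). At week 4 the ileum-minus-duodenum difference of Reg3a was -0.37 ± 0.34 (adjusted p = 0.422, edgeR), and the samples of the regions overlapped.

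Reg3d was at the edge of detection. Its highest count was 15 in a duodenum sample and 44 in an ileum sample, and 2 duodenum and 9 ileum samples had no count. Week 4 values were 0.391, 0.389 and 0.531 CPM in duodenum samples, against 0.816, 1.37 and 1.00 CPM in ileum samples. Those ileum samples lay above all 20 earlier ileum samples, of which the highest had 0.338 CPM. From day 0 to week 4 its log2 fold change was 5.48 ± 1.08 in the ileum (adjusted p = 7.70e-05, edgeR) and 4.38 ± 1.09 in the duodenum (adjusted p = 0.00128, edgeR). The day 0 groups hold 0 to 2 counts per sample, so these fitted fold changes depend on the prior count. The duodenal call was lost without duodenum day 0 numbers 2 and 3 (adjusted p = 0.0924, edgeR). In the duodenum the rise of 3.18 ± 1.04 between week 2 and week 3 (adjusted p = 0.0273, edgeR) was lost without week 2 number 2 or 3, or week 3 number 2 or 3 (adjusted p = 0.0507 to 0.113, edgeR). In the ileum the rise of 2.61 ± 0.87 between week 3 and week 4 (adjusted p = 0.0352, edgeR) was lost without week 3 number 1 or 3, or week 4 number 2 or 3 (adjusted p = 0.0532 to 0.178, edgeR). It was also lost with all 48 samples (adjusted p = 0.0584, edgeR) and with only the compared groups (adjusted p = 0.0681, edgeR).

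Other genes of epithelial defence and of the signalling pathways named above were read from 2 lists, chosen with earlier results of these data known. The first holds 16 other epithelial defence genes, and all were tested. Between week 3 and week 4, 15 of them rose in the ileum (median log2 fold change 2.69) and 10 in the duodenum (median 2.05), and none fell in either. Over all genes tested 8.26% rose in the ileum and 7.75% in the duodenum, with medians of 0 and -0.04. The list shares Zg16 with the goblet cell markers given below, and Lyz1, Ang4 and Itln1 with the Paneth cell markers. The largest ileal rise was that of Saa1, a serum amyloid A gene, at 11.64 ± 1.11 on the log2 scale (adjusted p = 7.81e-09, edgeR). Retnlb, which encodes a bactericidal resistin-like protein, and Saa2 had no count in the ileum at week 3 and means of 2.04 and 0.494 CPM at week 4. In the duodenum the largest were those of Nos2, the inducible nitric oxide synthase gene, at 7.57 ± 1.12 (adjusted p = 1.14e-05, edgeR), Duox2, a hydrogen peroxide-producing oxidase gene, at 6.10 ± 0.75 (adjusted p = 5.25e-07, edgeR), and Retnlb. Duox2 had duodenal means of 0.818 and 58.6 CPM before and after the step, and ileal means of 9.03 and 515 CPM.

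The second list holds 20 genes of interleukin-22, interleukin-17 and MyD88 signalling, of which 16 were tested. The cytokine genes Il22, Il17a and Il17f and the receptor gene Il23r did not pass the filter on low counts. Between week 3 and week 4, 4 of 16 rose in each region and none fell, and the median log2 fold change was 0.47 in the duodenum and 0.37 in the ileum, against the same shares and medians over all genes. Socs3, a STAT3 target gene that dampens the signal, rose by 2.47 ± 0.25 in the duodenum (adjusted p = 2.68e-09, edgeR) and 2.18 ± 0.25 in the ileum (adjusted p = 3.26e-08, edgeR). Il17rc, an interleukin-17 receptor subunit gene, rose by 1.88 ± 0.31 and Stat3 by 0.72 ± 0.17 in the duodenum (adjusted p = 3.03e-05 and 0.00314, edgeR). Il22ra2, the gene of a soluble interleukin-22 inhibitor, rose by 3.46 ± 0.86 and Myd88 by 0.64 ± 0.17 in the ileum (adjusted p = 0.00371 and 0.00764, edgeR). Between week 2 and week 3 the list was split, with 2 higher and 3 lower in the duodenum and 2 higher and 5 lower in the ileum. Of all genes 7.7% were higher and 10.6% lower at that step in the duodenum, and 12.9% and 13.9% in the ileum. Il18, an epithelial cytokine gene, and Il17rc were higher at week 3 in both regions.

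Cell type markers moved over the same step. Summed CPM of 6 Paneth cell markers went from 735 to 1596 at week 3 to 2234 to 4084 at week 4 in the ileum, and from 1605 to 1986 to 2217 to 3660 in the duodenum. Of these markers 4 rose in the ileum and 3 in the duodenum, where 8.26% and 7.75% of all genes did. Summed CPM of 7 goblet cell markers went from 8948 to 10780 to 14120 to 19080 in the ileum, with 2 rising, and from 4207 to 5174 to 4967 to 10150 in the duodenum, with 1 rising. Of 6 enterocyte markers 2 were higher in the duodenum and 1 was lower in the ileum, where 7.81% of all genes were lower. Their summed CPM went from 14200 to 23800 at week 3 to 11090 to 18660 at week 4 in the ileum, and from 12750 to 16150 to 15260 to 19240 in the duodenum. The sum of 4 neutrophil markers was 0.530 to 1.22 CPM in week 4 duodenum samples, and 1.63 to 3.47 CPM in ileum samples. The part of these cells in the Reg3 rise was not tested. In whole tissue, more cells of a type and more RNA per cell cannot be told apart. The sexes were also unevenly spread over the ages, since Ddx3y was at 10 CPM or more in 2 of 3 samples per region at week 3 and in none at week 4. The week 3 samples without Ddx3y, number 1 of each region, had 35.7 CPM of Reg3b in the duodenum and 101 CPM in the ileum. The part of sex in the change between these ages was not tested.

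Reg1 was mainly a duodenal transcript. In the duodenum its samples of day 0 to week 2 ran from 1.80 to 79.2 CPM with a median of 34.0, over 17 samples. The week 3 samples held 258, 456 and 195 CPM, those of week 4 held 1091, 281 and 1051 CPM. Week 3 lay above all earlier duodenum samples, and week 4 overlapped with week 3 through its number 2. The rise from day 0 to week 4 was 4.75 ± 1.18 on the log2 scale (adjusted p = 0.00159, edgeR). Without duodenum day 0 numbers 2 and 3 it was 8.82 and still called. The remaining sample held 1.80 CPM and those left out 24.6 and 63.0 CPM. The single steps did not pass, with 2.48 ± 1.07 from week 2 to week 3 (adjusted p = 0.111, edgeR) and 1.42 ± 1.03 from week 3 to week 4 (adjusted p = 0.398, edgeR).

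In the ileum Reg1 was at 3.19 CPM or less in 19 of the 20 samples up to week 3. The other was day 0 number 2, at 45.8 CPM from 1097 counts, beside 0 and 0.404 CPM in numbers 1 and 3. At week 4 the ileal values were 52.4, 23.8 and 72.1 CPM, against 1.04, 3.19 and 1.45 CPM at week 3. That rise was 4.72 ± 1.27 on the log2 scale (adjusted p = 0.00866, edgeR), and it was lost without week 3 number 1 (adjusted p = 0.0566, edgeR) and with all 48 samples (adjusted p = 0.0507, edgeR). The fall from day 0 to week 2, -4.69 ± 1.33 (adjusted p = 0.0168, edgeR), rested on day 0 number 2, and without that sample the change was 1.29 (adjusted p = 0.703, edgeR). It was also lost without any one of the 3 week 2 samples (adjusted p = 0.0577 to 0.0811, edgeR), with the replicate block (adjusted p = 0.0642), with all 48 samples (adjusted p = 0.0806) and with only the compared groups (adjusted p = 0.263). Likewise the rise from day 0 to week 4, 1.70 ± 1.06 and not called (adjusted p = 0.204, edgeR), was 7.67 without day 0 number 2 (adjusted p = 3.09e-05, edgeR).

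The regional difference of Reg1 was called at every age from day 2. The ileum-minus-duodenum difference on the log2 scale was -6.17 ± 1.496 at day 2 and -4.89 ± 1.28 at day 4. On day 6 it was -8.62 ± 2.24, and on day 8 it was -6.00 ± 1.41. In weeks 2, 3 and 4 it was -6.53 ± 1.39, -7.34 ± 1.39 and -4.04 ± 1.14. The adjusted p ran from 5.08e-04 to 0.0101 (edgeR), and the samples of the regions did not overlap at any of these ages. At day 0 the difference was -0.98 ± 1.04 (adjusted p = 0.689, edgeR), and without ileum day 0 number 2 it was -6.96 (adjusted p = 0.00127, edgeR). The call was lost at day 2 without ileum number 2 (adjusted p = 0.0523, edgeR), and at day 6 without ileum number 2 (adjusted p = 0.0545, edgeR). With the samples labelled day 6 number 3 put back, the day 6 difference was -1.07 (adjusted p = 0.826, edgeR) and the calls at day 2 and week 4 just missed (adjusted p = 0.0502 and 0.0510).

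Because Reg1 is abundant in the pancreas, which lies against the duodenum, 13 measured pancreatic acinar markers were read beside it. Their summed CPM in the duodenum was highest in day 2 number 1, at 827, and reached 193 and 265 in the 2 day 6 samples and 62.2 to 177 at day 4. It was 26.7 to 32.6 at week 3, and the mean was lowest at week 4, at 11.7 to 30.0. Reg1 was at 33.4 CPM in day 2 number 1 and at 1051 CPM in the week 4 sample of the lowest sum, number 3. Within 2 of the 8 ages, day 0 and day 4, the duodenum samples had the same order for both, and at every other age the order differed. At day 0 the sums were 22.2, 36.7 and 60.3 beside 1.80, 24.6 and 63.0 CPM of Reg1, and at day 4 they were 62.2, 177 and 119 beside 14.5, 53.6 and 39.7 CPM. At week 3 they were 26.7, 30.5 and 32.6 beside 258, 456 and 195 CPM. From week 2 to week 3 the median log2 fold change of the 13 markers was 1.61, against 0.03 over all genes, while their sum went down. At that step 1 marker was called higher and 1 lower, where 7.7% of all genes were higher and 10.6% lower. In the week 4 duodenum the acinar enzyme genes Prss2, Cpa1, Cpb1, Cela2a and Pnlip were at 0 in at least 1 sample and at most 2.29 CPM. Clps, the colipase gene, was there at 10.3 to 17.4 CPM, against 5.48 to 9.71 CPM in the week 4 ileum. Markers that are not named here also enter the sum. From day 0 to week 4 in the duodenum, 1 of the 13 markers was called higher and 1 lower. Of all genes 20.4% were higher and 20.1% lower over that span. None of the 13 markers was called between week 3 and week 4 in the duodenum, where 12.7% of all genes were. Their median log2 fold change was -1.03. In the ileum the sum ran from 5.84 to 23.6 at day 0, with its highest value in number 2, the sample with 45.8 CPM of Reg1. It was 24.1 to 36.95 in the ileum at week 2, beside 0.380 to 0.806 CPM of Reg1. With the log2 of the summed markers as a covariate, the regional differences of Reg1 at week 2, 3 and 4 and day 8 were still called. Those at day 2 (-5.12, adjusted p = 0.0564, edgeR), day 4 (-3.57, adjusted p = 0.113, edgeR) and day 6 (-6.65, adjusted p = 0.0987, edgeR) were not. Which cells the Reg1 RNA came from was not tested.

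**Figure D3:**
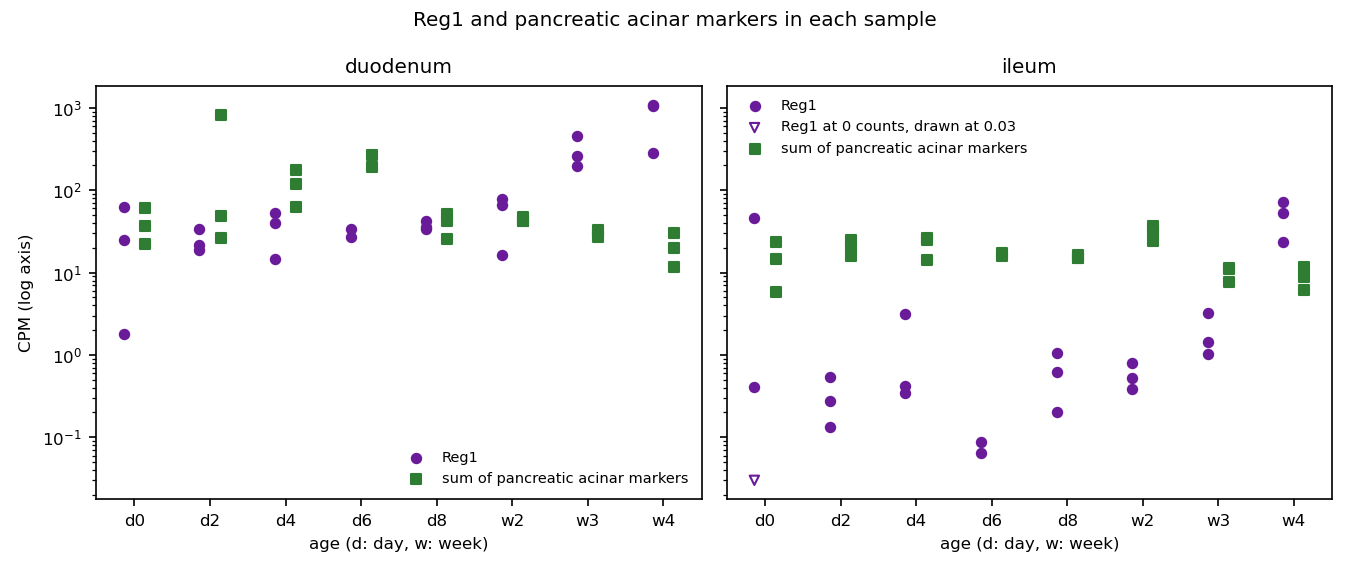
Reg1 RNA and the summed RNA of 13 pancreatic acinar markers in each sample, in CPM on a log axis, by age for duodenum and ileum; open triangles are Reg1 at 0 counts. In the duodenum the marker sum has its lowest mean at week 4, 11.7 to 30.0 CPM, where Reg1 is at its highest, 281 to 1091 CPM.

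Reg2, the close relative of Reg1, showed no change with age that passed. Duodenum samples held 0.0311 to 0.483 CPM and ileum samples 0 to 0.868 CPM, with at most 36 counts in a sample. The joint age test gave an adjusted p of 0.831 in the duodenum and 0.285 in the ileum (edgeR). The ileal value passed without ileum day 4 number 1 (adjusted p = 0.0314, edgeR). It also passed in the 40 samples that the authors' normalized tables hold (adjusted p = 0.0272, edgeR), a test without day 4. Ileum samples of week 2 held 0.652, 0.763 and 0.817 CPM of Reg2, and duodenum samples 0.248, 0.181 and 0.263 CPM. The difference of 1.66 ± 0.61 (adjusted p = 0.0446, edgeR) was lost without any one of those 6 samples (adjusted p = 0.0705 to 0.138, edgeR), although the groups did not overlap. Reg2 and Reg1 transcripts were 78.93% identical over 674 aligned bases and their promoters 69.03% over 226, while Reg2 stayed at 0.868 CPM or less in all 46 samples.

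Reg4 was the steadiest of the abundant members. It lay between 39.9 and 182 CPM in all 46 samples. From day 0 to week 2 it rose in the duodenum by 1.39 ± 0.23 on the log2 scale (adjusted p = 1.71e-05, edgeR), from 56.4, 49.6 and 51.8 CPM to 144, 130 and 140 CPM, without overlap. Thereafter it did not change in the duodenum beyond the spread, with 115, 151 and 129 CPM in the third week and 152, 124 and 106 CPM a week later. Ileum samples of day 2 held 91.5 to 126 CPM of Reg4, above the 55.7 to 57.6 CPM of day 0. The ileal change from day 0 to week 2, 0.57 ± 0.23, did not pass (adjusted p = 0.0984, edgeR), although the samples did not overlap. In the ileum Reg4 went from 115, 142 and 85.1 CPM at week 3 to 61.9, 39.9 and 48.6 CPM at week 4. This was a fall of 1.19 ± 0.23 (adjusted p = 2.29e-04, edgeR). The samples of the 2 ages did not overlap, and the week 4 values were back near the 55.7 to 57.6 CPM of day 0. Reg4 thus fell at the step at which Reg3b and Reg3g rose. At week 4 the ileum lay below the duodenum by 1.35 ± 0.23 (adjusted p = 5.56e-05, edgeR). At week 2 it lay below by 0.71 ± 0.23 (adjusted p = 0.0205, edgeR), a call lost without duodenum number 1 or 3 or ileum number 1 or 2 (adjusted p = 0.0514 to 0.124, edgeR).

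Reg4 was also the member for which the course over age differed between regions in the joint interaction test (adjusted p = 6.05e-04, edgeR). That is 1 of 7 Reg genes, against 22.4% of all genes. Reg1, Reg3g and Reg3b did not pass (adjusted p = 0.0615, 0.0673 and 0.136, edgeR), although DESeq2 called these 3 as well (adjusted p = 0.0127, 0.0132 and 0.0192). For Reg4 the ileal change from week 3 to week 4 differed from the duodenal one by -1.14 ± 0.32 (adjusted p = 0.0666, edgeR). Of 12 markers of enteroendocrine cells, which make Reg4, 2 were higher and 1 was lower at this step in the ileum. Of 7 goblet cell markers 2 were higher and none lower. Over all genes tested 8.26% were higher and 7.81% lower there.

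In the 46 samples the number of Reg genes called between the regions varied with age, as did the share of all genes called. No Reg gene was called at day 0 with edgeR, where 6.1% of genes were, 2.97% higher and 3.14% lower in the ileum. None had an unadjusted p under 0.05 or was called by DESeq2. This count of 0 depended on ileum day 0 number 2. Without that sample Reg1 was called at day 0 too (-6.96, adjusted p = 0.00127, edgeR). At day 2 only Reg1 was called, lower in the ileum, against 8.01% of genes called, 4.05% higher and 3.97% lower. At day 4 it was again Reg1, against 26.6% called, 11.6% higher and 15% lower. At day 6, 2 of 7 were called, Reg1 lower and Reg3b higher, against 35.3% called, 17.8% higher and 17.5% lower. At day 8 they were the same 2 genes, against 39.6% called, 17.1% higher and 22.6% lower. At week 2 the 3 called were Reg1 and Reg4, lower, and Reg2, higher, against 22.4% called, 10.6% higher and 11.8% lower. At week 3 they were Reg1 and Reg3a, lower, and Reg3g, higher, against 14.2% called, 7.28% higher and 6.9% lower. At week 4 Reg1 and Reg4 were lower and Reg3b and Reg3g higher, against 28.4% called, 14.5% higher and 13.9% lower. The share of all genes called also rose up to day 8. At day 4 the members' share lay below it, and at day 6 and day 8 it was near it. The counts moved with the setting. Leaving out 1 sample gave 1 to 2 at week 2, and with only the compared groups there were 4 at day 2.

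At week 4 Reg3b and Reg3g were higher in the ileum. The ileum-minus-duodenum difference was 1.91 ± 0.60 for Reg3b (adjusted p = 0.0182, edgeR) and 2.34 ± 0.51 for Reg3g (adjusted p = 0.00120, edgeR). No duodenum sample reached the ileal range for either gene, the closest being number 2. The call of Reg3b was lost without duodenum week 4 number 1 (1.48, adjusted p = 0.0984, edgeR) or ileum week 4 number 2 (1.71, adjusted p = 0.0531, edgeR). At week 3 Reg3g was already higher in the ileum by 1.70 ± 0.51 (adjusted p = 0.0216, edgeR), without overlap. This call was lost without any of the 3 duodenum samples of week 3 or ileum number 2 or 3 (adjusted p = 0.0548 to 0.0836, edgeR), and without the filter on low counts (adjusted p = 0.0610, edgeR). The difference of Reg3b at week 3, 1.58 ± 0.60, did not pass (adjusted p = 0.0742, edgeR). In order of mean level, the ileum at week 4 came first for both genes, then the duodenum at week 4, the ileum at week 3 and the duodenum at week 3. Each of the first 3 groups lay above the next without overlap, and from the duodenum at week 3 downward most neighbours in the order overlapped.

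**Figure D4:**
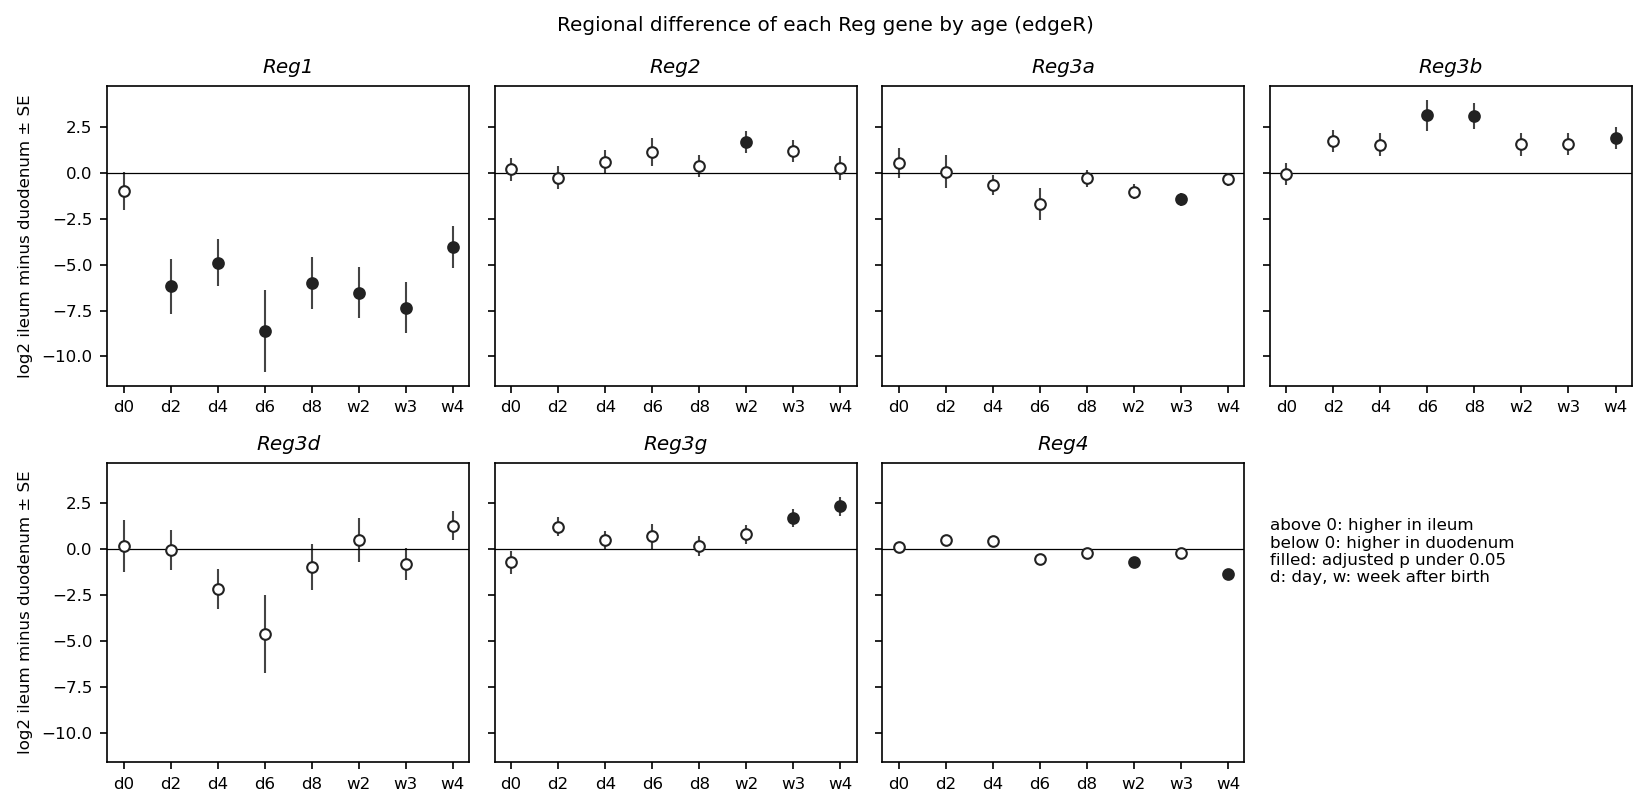
Log2 difference of ileum minus duodenum with its standard error for each Reg gene at 8 ages; filled points had an adjusted p under 0.05 (edgeR). Reg1 lies below 0 with filled points from day 2 to week 4, Reg3b lies above 0 from day 2 with filled points at day 6, day 8 and week 4, and Reg3g has filled points at week 3 and week 4.

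Earlier regional differences concerned Reg3b. Duodenum samples of day 8 held 1.03, 0.696 and 1.19 CPM of Reg3b, against 7.97, 5.80 and 10.95 CPM in ileum samples, a difference of 3.09 ± 0.69 (adjusted p = 7.80e-04, edgeR). For Reg3g the duodenum held 3.19, 2.72 and 3.72 CPM, against 4.78, 2.92 and 3.37 CPM in the ileum, a difference of 0.18 ± 0.54 (adjusted p = 0.812, edgeR), which was -0.03 without ileum number 1. Day 6 gave 3.13 ± 0.84 for Reg3b (adjusted p = 0.00407, edgeR), a call lost without duodenum number 2 (adjusted p = 0.0535, edgeR) or ileum number 2 (1.52, adjusted p = 0.278, edgeR). It was also lost with all 48 samples (adjusted p = 0.740, edgeR). Whether the regional differences of the 2 genes differ from each other was not tested.

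Per kilobase of transcript, the level of Reg3b divided by that of Reg3g was 6.52 ± 1.16 (SD, n = 3) in the duodenum at day 0 and 9.84 ± 4.12 (SD, n = 3) in the ileum. In the duodenum it came down to 0.295 ± 0.0375 (SD, n = 3) at day 8, the only age besides day 6 at which Reg3g exceeded Reg3b in every duodenum sample, and was 2.90 ± 0.448 (SD, n = 3) at week 3. In the ileum it was 2.27 ± 0.825 (SD, n = 3) at day 8 and 1.79 ± 0.0229 (SD, n = 3) at week 4. The 3 ileum samples of week 4, which differ in level, thus held nearly the same ratio, between 1.76 and 1.81. No ileum sample of any age had a ratio under 1.64.

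Together the 7 genes took 0.00866% ± 0.00242 (SD, n = 3) of all counts in the duodenum at day 0 and 0.00853% ± 0.00276 (SD, n = 3) in the ileum. They took at most 0.0239% in any sample up to week 2. At week 3 the share was 0.0503% ± 0.0147 (SD, n = 3) in the duodenum and 0.0317% ± 0.00713 (SD, n = 3) in the ileum. At week 4 it was 0.466% ± 0.206 (SD, n = 3) in the duodenum and 1.76% ± 0.524 (SD, n = 3) in the ileum, and reached 2.36% in 1 ileum sample. Per kilobase, Reg3b had the highest mean of the family at week 4, 16480 CPM in the ileum and 4374 in the duodenum, followed by Reg3g at 9223 and 1827. Reg1 came next in the duodenum, at 893, and Reg3a in the ileum, at 83.2. At day 0 the highest mean per kilobase was that of Reg4, with 51.5 for the duodenum and 55.4 for the ileum.

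**Figure D5:**
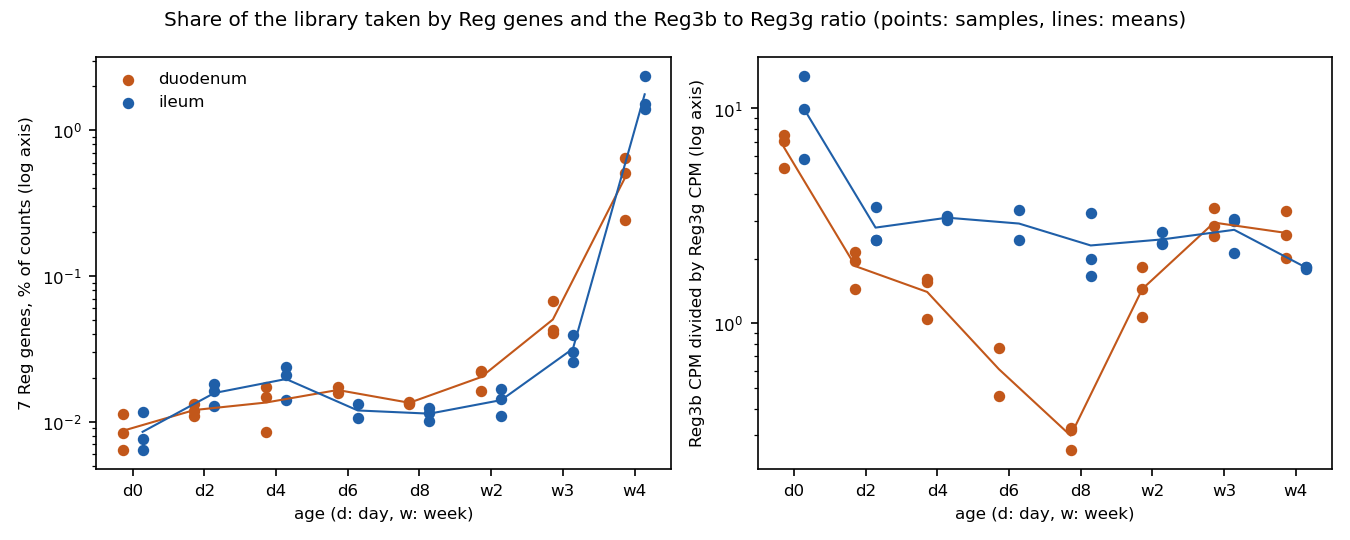
Left, percentage of all counts assigned to the 7 Reg genes in each sample, on a log axis; right, CPM of Reg3b divided by CPM of Reg3g, on a log axis, with lines joining group means. The share reaches 0.242% to 0.647% in the duodenum and 1.40% to 2.36% in the ileum at week 4, and the ratio in the duodenum is lowest at day 8.

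Over the 46 samples, Reg3b and Reg3g had the highest correlation of log2 CPM within the family (Pearson r = 0.948), followed by Reg3a with Reg3g (r = 0.830). The values of Reg4 with the other members ran from -0.318 with Reg2 to 0.183 with Reg3a, and Reg1 reached 0.564 with Reg3a. These values are descriptions over samples that share ages, regions and depth. Among 12352 other genes, those most like Reg3g over the 46 samples were Tcf7l2 (r = 0.898), Duox2 (0.898), Mmp7 (0.894), Relb (0.892) and Junb (0.890). For Reg3b they were Slc37a1 (0.912), Prss30 (0.907), Prr13 (0.904), Mep1b (0.904) and Fam3b (0.902), and for Reg3a they were Cyp4f14 (0.971), Ppard (0.960), Slc9a2 (0.960), Trim36 (0.946) and Slc13a1 (0.945). For Reg1 they were Cyp2c66 (0.900), Car2 (0.896), Tmprss2 (0.892), Dmbt1 (0.885) and Plac8 (0.880), and for Reg3d Acaa1a (0.816), Upp1, Ada, Chst4 and Smpdl3b (0.806). The genes nearest to Reg4 reached only 0.690 (Ankmy2, then Ywhab, Dnph1, Gm45716 and Nhlrc1) and those nearest to Reg2 0.792 (Gm15462, then Gm21781, Srsf5, Gm47808 and Gm15298). For Reg2 and Reg3d such values rest on small counts.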

How the data were processed

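RNA of 48 whole-tissue samples was sequenced, and the values used are the authors' estimated counts per gene, deposited as one table made with tximport. Per the submitters' processing notes, STAR 2.6.1d, Salmon 0.14.2, DESeq2 1.30.1 and mm10 were used. The deposited normalized tables hold 40 of the samples as signal, the counts divided by 1 factor per column, and gave the gene symbols. They hold no sample of day 4, so joint tests in the 40 samples cover only the other ages.

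Estimated counts entered edgeR as deposited and were rounded to whole numbers only for DESeq2. edgeR 4.0.16 in R 4.3.3 was run with TMM scaling, filterByExpr and a robust quasi-likelihood fit of 16 group means to 46 samples. P-values were adjusted by Benjamini-Hochberg over the 21986 genes tested, separately in each of 20 tests, and called under 0.05. CPM used the TMM-scaled library sizes. The steps were tested on simulated data. Total counts ran from 16824021 to 65042327 per sample.

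The samples labelled day 6 number 3 were left out. The labels do not say that the samples of a group come from separate animals, so p-values measure the spread between these samples, which may be technical. The members and gene lists were chosen with earlier results of these data known. The text names the members, at most the 3 called genes of largest change per list and comparison, and the 5 genes of highest correlation with each member among genes whose mean log2 CPM reached 1. It also names regional, sex-linked and acinar markers as checks, the signalling genes that did not pass the filter, and the genes that lists share. Alternatives were other scaling (RLE), no filter or a mean count of at least 10, all 48 samples, the 40 samples, a covariate of summed acinar markers, a replicate block, only the compared groups, DESeq2 1.42.0 and leaving out each sample. Leaving out duodenum day 0 numbers 2 and 3 was added after seeing the data. Promoters are from RefSeq, GRCm38.p6, and gene models from GENCODE M21, GRCm38.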

Additional observations from a re-analysis of the deposited data

Results flagged for a closer look

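The course of Reg4 over age differed between duodenum and ileum in the joint interaction test (adjusted p = 6.05e-04, edgeR), from levels of 49.6 to 57.6 CPM in both regions at day 0 to 106 to 152 CPM in the duodenum and 39.9 to 61.9 CPM in the ileum at week 4. The samples labelled day 6 number 3, which enter no comparison, carried Reg1 at the level of the other region. The sample labelled duodenum had 0.0287 CPM of Reg1, where the other day 6 duodenum samples had 27.4 and 34.0 CPM. The sample labelled ileum had 29.3 CPM of Reg1, where the other day 6 ileum samples had 0.0647 and 0.0869 CPM. Pdx1 stood at 0.115 and 14.5 CPM in the same 2 samples and Fgf15, an ileal hormone gene, at 99.5 and 4.54 CPM. Whether the samples were exchanged was not tested.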

How the results depend on the processing

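Of 60 called results of single Reg genes, 42 kept their direction and their call in every alternative that gave an adjusted p. The call was lost in at least 1 for 18. Some alternatives gave no adjusted p for genes of few counts such as Reg3d, and these are not counted as a loss. Of 80 not called, 24 were called in at least 1. The Reg3b and Reg3g calls between week 3 and week 4 were among those kept.

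The number of Reg genes called moved as follows. With the 40 samples it was 5 for week 2 against day 0 in the ileum, 3 for the regions at day 2 and 5 at week 3. There the interaction, tested without day 4, had 4 and the difference between regional changes had 1. With all 48 samples it was 0 for the regions at day 2 and 0 at day 6. With the acinar covariate it was 0 at day 2, 0 at day 4 and 1 at day 6. With only the compared groups it was 4 at day 2 and 5 at week 2. Keeping genes with 10 or more counts on average gave 2 at day 4 and 3 for the interaction. DESeq2 gave 2 at day 2, 2 at day 4, 4 for the interaction and 1 for the difference between regional changes. Without 1 sample the ranges were 0 to 1 at day 0, 0 to 1 at day 2, 1 to 2 at day 4, 0 to 2 at day 6, 1 to 2 at week 2, 1 to 2 for the interaction and 0 to 1 for the difference between regional changes. The causes were not tested.

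Among the results given, these log2 changes turned sign, none of them called after the turn. For Reg1 between day 0 and week 2 in the ileum, leaving out 1 sample gave -5.284 (without ileum day 0 number 3) to 1.286 (without number 2). For Reg1 between regions at day 0 it gave -6.96 to 0.266, and 3.057 without duodenum day 0 numbers 2 and 3. For Reg3b in the difference between regional changes it gave -0.094 to 0.758, and for Reg3b from day 0 to week 2 in the duodenum -0.692 to 0.178, and 1.04 without day 0 numbers 2 and 3. Reg3g between regions at day 8 gave -0.028 to 0.327. Reg4 from week 3 to week 4 in the duodenum gave -0.196 to 0.07, and 0.003 with the acinar covariate. Of 48 further results that were called in no setting and are not given, 15 changed sign.

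Same-numbered duodenum and ileum samples correlated at -0.363 to 0.672 over 23 pairs (16 over 0.1), and 17 duodenum samples were closest to their own number, a hint from the data that some numbers may pair. The labels do not say that they do and not every pair was over 0.1, so no block was used. The replicate block was an alternative of 2 kinds. Tests between regions took samples of the same age and number as a pair. Tests of age took the sample number within each region, so their results do not bear on a pairing of the regions. With the replicate block the regions had 2 Reg genes called at day 4, the interaction 2. Of single results 2 lost the call, Reg1 in the ileum from day 0 to week 2 and Reg2 between regions at week 2 (adjusted p = 0.0656, edgeR). The call was gained by 5: Reg3g from week 2 to week 3 in the duodenum (0.0442), Reg3b, Reg3a and Reg3a between regions at day 4 (0.0377), day 6 (0.0363) and week 2 (0.0115), and the interaction of Reg3g (0.0218).

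Counts over all genes moved by more than 1.5 times in 14 of the 20 tests, so the background shares depend on the setting. From week 3 to week 4 the 2794 genes called in the duodenum became 1706 (without week 4 number 2) to 4568 (40 samples), and the 3534 in the ileum became 1527 (only the compared groups). From day 0, duodenum, 8909 (week 4) and 5156 (week 2) became 5521 and 2356 without day 0 numbers 2 and 3, and in the ileum at week 2, 2715 became 1802 (all 48 samples). Between regions, 1342 became 82 to 2419 at day 0, 1762 became 674 to 5408 at day 2, 5855 became 354 to 3851 at day 4, 7762 became 0 to 4923 at day 6, 4922 became 2561 to 7426 at week 2, 3117 became 1376 to 5585 at week 3 and 6234 became 2491 to 4141 at week 4. The interaction's 4930 became 947 to 9512, and the 259 of the difference between regional changes 18 to 1046. Genes of few counts (Reg2, Reg3d, and Reg3a at day 0) are limited by depth.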
